A study of Rattus norvegicus with 12 samples.

Results

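The constitutive proteasome genes were followed in rat liver through a cirrhosis model. Genes were taken by symbol: a single symbol that starts with Psma, Psmb, Psmc or Psmd and a digit, without Psmb8, Psmb9 and Psmb10, whose products replace the catalytic subunits in the immunoproteasome. The rule found 34 genes among 13897 named genes on the array. Of these, 33 encode subunits of the proteasome or chaperones of its assembly. The other one, Psmc3ip, carries a matching symbol but encodes a partner protein of meiotic recombination and is no subunit.

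The 26S proteasome degrades proteins that carry ubiquitin chains. Its 20S core is a barrel of alpha and beta rings, with proteolytic sites on beta subunits that face the inner chamber. The 19S particle caps the barrel: a ring of ATPases unfolds the substrate and opens the gate, ubiquitin receptors and scaffolds hold it, and a lid carries the deubiquitinase that removes the chain. The transcription factor Nfe2l1 (NRF1) is known from mouse and human cells to raise these genes together when proteasome activity is short. In liver, deletion of Nfe2l1 in mouse hepatocytes is known to cause steatohepatitis.

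Expression had been measured on 12 Affymetrix Rat Genome 230 2.0 arrays with liver from the middle of the right lobe of Sprague-Dawley rats, given as 12-week-old. There were 3 arrays from each of 4 groups: normal liver (0h), and liver at 3, 6 and 9 weeks of carbon tetrachloride (CCl4), a toxin that hepatocytes activate. The 0h livers were the sole control: there was no vehicle group and no control of matched time. By their labels the 3 arrays of each group are technical repeats, and neither the number nor the sex of the animals is given, so p-values measure only the spread between these arrays.

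All values are the authors' scaled signals, in arbitrary units, and changes are differences of log2(signal + 16) with their SE. A gene was called where limma's moderated test gave a Benjamini-Hochberg adjusted p under 0.05 over the 10322 genes that passed a filter on low signal, whatever the size of the change. All 34 members passed that filter. The median SD between arrays of a group was 0.06 log2 units over the members and 0.13 over all genes tested. A signal of liver tissue is a mixture over its cells: fewer cells of a type and less RNA per cell cannot be told apart. All 8 hepatocyte markers were measured, with mean signals between 7749 for Tat and 47220 for Tf at 0h. The pancreatic enzyme gene Cpa1 was far lower at every CCl4 time than at 0h (log2 change -7.31, -6.98 and -7.05 at 3, 6 and 9 weeks), and 3 of 5 pancreas markers summed to 240 to 377, 149 to 200 and 123 to 203 at those times, against 6342 to 6833 at 0h. Cpa1 alone gave 6044 to 6538 of the sum at 0h. Of the 3 markers, 1 was called lower than at 0h at 3 weeks and 2 at 6 and 9 weeks. Another 1 was lower at none of these times (0.74, 0.37 and 0.44, not called). Whether the 0h samples held pancreas tissue, and its part in the changes against 0h, was not tested. The step from 3 to 6 weeks does not use the 0h arrays.

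Part of the proteasome genes were below normal liver at 3 weeks, and most were above it at 6 and 9 weeks. At 3 weeks 4 of the 34 members were called higher and 15 lower than at 0h; over all genes tested the shares were 22.5% higher and 19.9% lower. At 6 weeks 23 were higher and 5 lower, beside 30% and 24.4% of all genes. At 9 weeks 24 were higher and 3 lower, beside 32.9% and 22.8%. These comparisons share the 0h arrays and are not independent. Over the members, the median change came to -0.03 at 3 weeks, 0.22 at 6 weeks and 0.33 at 9 weeks, beside 0.01, 0.03 and 0.07 over all genes. With each array centred on its own median, beyond the authors' scaling, the member median at 3 weeks was -0.13. The median over all genes moved as well, to -0.09.

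The step from 3 to 6 weeks was called in more members than the step from 6 to 9 weeks. At 6 weeks 26 members were called higher than at 3 weeks (26.3% of all genes were), and 0 were called lower (22.7%); at an unadjusted p under 0.05, 27 were higher and 0 lower in limma. At 9 weeks 7 were higher than at 6 weeks (14.9% of all genes) and 0 lower (11.1%), and at an unadjusted p 12 were higher and 0 lower. The share of all genes at an unadjusted p under 0.05 was not counted, so such counts, here and below, have no background. The 7 called after adjustment depended on scaling: 3 were called with each array centred on its median, when 11.5% of all genes were called higher, and 11 with quantile normalization, when 15% were. The median change of the members was 0.29 for the first step and 0.08 for the second, beside 0.02 and 0.03 over all genes. Changes were small. Past 2-fold as well as called were Psmd3 alone at 6 weeks and Psmd3 and Psmd1 at 9 weeks, where 5.14% and 6.32% of all genes were called at least 2-fold higher.

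The signals of the 34 members summed to 127981 to 132081 at 0h, 119466 to 121187 at 3 weeks, 145344 to 147594 at 6 weeks and 151824 to 155641 at 9 weeks. The 4 groups did not overlap in this sum, which the brightest probe sets dominate. Gene by gene, the 3 arrays of the CCl4 group lay wholly apart from the 3 at 0h for 19 members at 3 weeks, 29 at 6 weeks and 29 at 9 weeks. Of all genes tested, 49.7%, 60% and 61.8% lay apart in the same way at 3, 6 and 9 weeks. Over the whole course, 30 of the 34 members passed limma's moderated F test at a Benjamini-Hochberg adjusted p under 0.05, as did 71.7% of all genes. The 4 that did not were Psmb1, Psmb2, Psmd10 and Psmc3ip (adjusted p = 0.0601, 0.629, 0.137 and 0.0912).

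**Figure D1:**
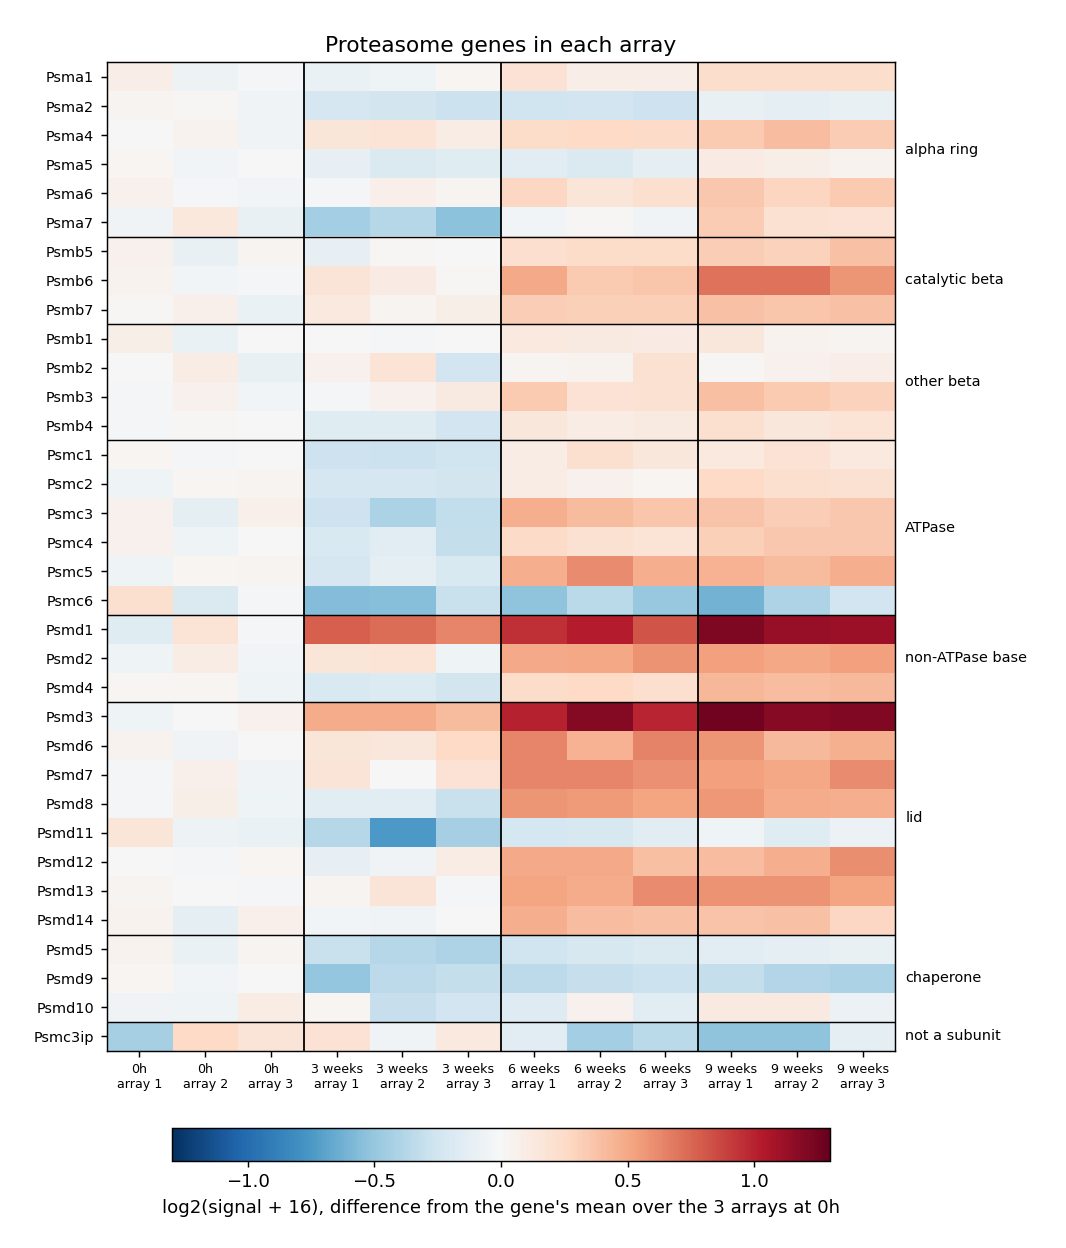
Each row is 1 of the 34 genes and each column 1 of the 12 arrays, in the order 0h, 3, 6 and 9 weeks; colour is log2(signal + 16) minus the gene's mean over the 3 arrays at 0h (red above, blue below), and rows are grouped by role. Most lid and base rows, Psmc6 and Psmd11 aside, turn red at 6 and 9 weeks, Psmd3 and Psmd1 most, while the ATPase rows are blue at 3 weeks.

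The heat map of single arrays shows that arrays of a group resemble each other row by row, and that the change between 3 and 6 weeks runs through most of the 19S rows.

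Psmd3 and Psmd1, both scaffold subunits of the 19S particle, had the largest rises among the members against 0h at each of the 3 times. Their promoters are shown for that reason; those of the catalytic subunits Psmb6 and Psmb5 because they hold a match to the same letters; and that of Psmc6 as the ATPase that was lower at all 3 times. Each is RefSeq sequence of the build GRCr8, from 250 bases before to 50 bases after the annotated start of the gene, written 5′ to 3′ along the gene's strand. Capitals mark matches to TGACNNNGC, the core of the antioxidant response element that Nfe2l1 and Nfe2l2 are known to bind. Psmd3 lies at chr10:84139688-84139987 (plus strand), Psmd1 at chr9:94157721-94158020 (plus), Psmb6 at chr10:55737638-55737937 (plus), Psmb5 at chr15:32047330-32047629 (minus) and Psmc6 at chr15:21022064-21022363 (plus).
Psmd3: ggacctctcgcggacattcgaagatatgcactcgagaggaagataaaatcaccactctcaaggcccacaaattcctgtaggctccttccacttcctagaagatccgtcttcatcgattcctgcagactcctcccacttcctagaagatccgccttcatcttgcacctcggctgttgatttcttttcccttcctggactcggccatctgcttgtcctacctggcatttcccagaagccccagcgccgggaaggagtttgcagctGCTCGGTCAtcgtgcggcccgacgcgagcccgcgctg
Psmd1: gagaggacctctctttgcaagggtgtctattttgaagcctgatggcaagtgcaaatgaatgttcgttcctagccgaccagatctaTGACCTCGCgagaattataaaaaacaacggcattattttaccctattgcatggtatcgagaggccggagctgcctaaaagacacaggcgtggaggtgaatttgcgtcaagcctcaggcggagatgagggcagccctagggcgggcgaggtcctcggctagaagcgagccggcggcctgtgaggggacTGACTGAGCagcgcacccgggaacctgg
Psmb6: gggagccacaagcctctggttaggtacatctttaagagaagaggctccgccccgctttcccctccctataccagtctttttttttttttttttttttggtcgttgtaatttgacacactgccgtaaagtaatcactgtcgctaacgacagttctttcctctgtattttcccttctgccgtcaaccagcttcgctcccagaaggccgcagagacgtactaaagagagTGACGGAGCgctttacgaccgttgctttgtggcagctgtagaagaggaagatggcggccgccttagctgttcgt
Psmb5: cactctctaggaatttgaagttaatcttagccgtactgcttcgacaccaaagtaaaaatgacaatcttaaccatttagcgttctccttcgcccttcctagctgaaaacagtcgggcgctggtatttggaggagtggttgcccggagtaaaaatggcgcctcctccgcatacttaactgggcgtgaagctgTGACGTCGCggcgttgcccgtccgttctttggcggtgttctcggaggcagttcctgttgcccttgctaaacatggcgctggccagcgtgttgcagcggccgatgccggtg
Psmc6: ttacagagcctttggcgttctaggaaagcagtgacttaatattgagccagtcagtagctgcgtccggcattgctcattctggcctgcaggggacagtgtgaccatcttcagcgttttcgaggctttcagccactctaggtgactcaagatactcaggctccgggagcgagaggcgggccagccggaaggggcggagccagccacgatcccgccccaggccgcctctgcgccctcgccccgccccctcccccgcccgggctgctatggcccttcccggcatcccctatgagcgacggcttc

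Promoters of 30 of the 34 members were matched by symbol; Psma7, Psmd6, Psmd12 and Psmd14 were not among them. Both strands were searched for 3 motifs, picked with the values already known. TGACNNNGC, whose reverse complement is GCNNNGTCA, was found in 6 of the 30 (20%) and in 12.1% of all 33469 promoters of that length. The 6 were Psmb2, Psmb5, Psmb6, Psmd1, Psmd3 and Psmd9. With the first base of the gene as position 1, the match of Psmb6 began at -24, that of Psmb5 at -60 and that of Psmd3 at 14, on the opposite strand; Psmd1 held one at -165 and one at 23. These 6 genes did not move alike: Psmd9, with 2 matches, was called lower at all 3 times, and Psmb2 passed no comparison. The promoter of Psmc6 shown above holds none of these letters in this window. CCAAT, the letters bound by the factor NF-Y, was in 16 of the 30 (53.3%) and in 37.5% of all promoters. GGGCGG, a GC box, was in 21 (70.0%) and in 33.1%. Of all 66 matches in the members, 3 shared a base with a match to another motif. A match is a description of the sequence only.

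The base of the 19S particle holds the 6 ATPases and, among the members, 3 subunits without ATPase activity. Psmd1, the scaffold to which ubiquitin receptors dock, had signals of 893, 1128 and 988 at 0h, 1720, 1660 and 1563 at 3 weeks, 1942, 2037 and 1777 at 6 weeks, and 2333, 2204 and 2174 at 9 weeks. All CCl4 arrays lay above all 0h arrays, and the 4 groups did not overlap. Against 0h it rose by 0.71 ± 0.08 at 3 weeks, 0.93 ± 0.08 at 6 weeks and 1.15 ± 0.08 at 9 weeks (limma, adjusted p = 1.38e-06, 2.03e-08 and 1.49e-09), or 1.64-fold, 1.90-fold and 2.22-fold. Both steps between times were near the threshold: 0.22 at 6 against 3 weeks (adjusted p = 0.0280) and 0.22 at 9 against 6 weeks (adjusted p = 0.0442). The first was not called without array 2 or 3 at 3 weeks or array 1 or 2 at 6 weeks (0.17 to 0.22, adjusted p up to 0.118). The second was not called without array 1 or 3 at 6 weeks or any one array at 9 weeks (0.17 to 0.24, adjusted p up to 0.182), nor with centring (0.22, adjusted p = 0.169).

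Psmd2, the other large scaffold of the base, changed by 0.09 at 3 weeks, 0.53 at 6 weeks and 0.53 at 9 weeks, and the last pair passed the test (adjusted p = 1.17e-06 and 1.24e-06). Without array 3 at 3 weeks the change there was 0.17 and was called (adjusted p = 0.0267). Psmd4, a ubiquitin receptor, was lower at 3 weeks (-0.20, adjusted p = 0.00285) and higher at 6 weeks (0.24, adjusted p = 0.000472) and 9 weeks (0.42, adjusted p = 1.44e-06) than at 0h.

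All 6 ATPases were called lower at 3 weeks (19.9% of all genes were), with changes between -0.47 and -0.18 and a median of -0.25. At 6 weeks 4 were higher than at 0h and 1 lower, beside 30% and 24.4% of all genes. At 9 weeks 5 were higher and 1 lower, beside 32.9% and 22.8%. Between 3 and 6 weeks 5 of the 6 were called higher, beside 26.3% of all genes. Psmc3 had signals of 3161, 2790 and 3181 at 0h, 2511, 2278 and 2431 at 3 weeks, 4216, 4040 and 3901 at 6 weeks, and 3920, 3810 and 3869 at 9 weeks. The 3-week arrays were below all others and the 6- and 9-week arrays above all at 0h. Its change was -0.34 ± 0.06 at 3 weeks and 0.41 ± 0.06 at 6 weeks against 0h, and 0.75 ± 0.06 at 6 against 3 weeks (adjusted p = 0.000151, 9.08e-06 and 7.56e-09).

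Psmc5 followed the same order of groups, with 2047, 2159 and 2180 at 0h, 1827, 1949 and 1856 at 3 weeks, 2959, 3275 and 2951 at 6 weeks, and 2912, 2832 and 2963 at 9 weeks. The arrays at 3 weeks were the lowest, and those at 6 and 9 weeks overlapped each other. It changed by -0.18 ± 0.05 at 3 weeks, 0.52 ± 0.05 at 6 weeks and 0.44 ± 0.05 at 9 weeks against 0h (adjusted p = 0.0123, 2.97e-07 and 1.99e-06), and by 0.70 ± 0.05 at 6 against 3 weeks (adjusted p = 8.43e-09). Psmc4 had changes of -0.22, 0.21 and 0.34 at 3, 6 and 9 weeks, all called; with each array centred on its median, the one at 6 weeks was 0.18 and missed the threshold (adjusted p = 0.0645). Psmc1 had -0.27, 0.15 and 0.15, of which the later pair was not called without array 2 at 6 weeks (0.12, adjusted p = 0.0603) or without array 2 at 9 weeks (0.13, adjusted p = 0.0661), and neither of which was called with centring (0.12 for both, adjusted p = 0.207 and 0.225). Psmc2 was lower at 3 weeks (-0.23) and higher at 9 weeks (0.22), with 0.06 at 6 weeks (adjusted p = 0.206); with quantile normalization the change at 6 weeks was 0.25 and was called (adjusted p = 5.93e-06).

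Psmc6 was the exception among the ATPases. Its signal was 5864, 4463 and 4999 at 0h, 3439, 3453 and 4156 at 3 weeks, 3539, 3972 and 3608 at 6 weeks, and 3306, 3842 and 4284 at 9 weeks. All 9 CCl4 arrays were below all 3 at 0h, and the CCl4 groups overlapped each other. The change was -0.47 ± 0.10, -0.45 ± 0.10 and -0.42 ± 0.10 at 3, 6 and 9 weeks (limma, adjusted p = 0.00135, 0.00108 and 0.00198). A second probe set gave -0.36, -0.34 and -0.40, and another, dimmer one -0.21, -0.05 and -0.26.

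The lid rose almost as a whole by 6 weeks. At 3 weeks 2 of its 8 subunits were higher and 2 lower than at 0h, beside 22.5% and 19.9% of all genes. Their median change was 0.02. At 6 weeks 7 of 8 were higher, with a median of 0.54, and at 9 weeks 7 of 8, with a median of 0.50. Of all genes, 30% and 32.9% were higher at these times. All 8 were called higher at 6 against 3 weeks, beside 26.3% of all genes. None was called between 6 and 9 weeks, beside 14.9% of all genes higher and 11.1% lower. In that step 1 was higher and 0 lower at an unadjusted p under 0.05 in limma. The one higher was Psmd3 (0.16, adjusted p = 0.0896), which was called when array 2 at 6 weeks was left out (0.22, adjusted p = 0.0242).

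Psmd3 had signals of 741, 770 and 799 at 0h, 1079, 1085 and 1027 at 3 weeks, 1554, 1775 and 1550 at 6 weeks, and 1857, 1774 and 1800 at 9 weeks. No CCl4 array reached down to those at 0h, and among the CCl4 groups only those at 6 and 9 weeks overlapped. The change against 0h was 0.46 ± 0.06, 1.06 ± 0.06 and 1.22 ± 0.06 (limma, adjusted p = 2.42e-05, 3.69e-10 and 6.99e-11), or 1.37-fold, 2.09-fold and 2.32-fold. In the authors' deposited table of ratios, made from the same arrays by a method not given in the sources used here, its mean log2 ratios were smaller: 0.19, 0.81 and 0.89. Over the members, all 74 changes called against 0h had the same sign as the mean ratio in the authors' deposited table. Changes that were not called were left out of this count, and some of them differed in sign, such as Psma1 and Psmd10 at 3 weeks. Since both sets of values come from the same arrays, the count is no independent check.

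Psmd7, which pairs with the deubiquitinase, had 2303, 2458 and 2275 at 0h, 2636, 2331 and 2665 at 3 weeks, 3646, 3649 and 3558 at 6 weeks, and 3394, 3331 and 3590 at 9 weeks. The 0h and 3-week arrays overlapped, and all later ones were higher. It changed by 0.11 at 3 weeks (adjusted p = 0.113), 0.62 ± 0.06 at 6 weeks and 0.55 ± 0.06 at 9 weeks (adjusted p = 5.94e-08 and 3.05e-07). Without array 2 at 3 weeks the first was 0.18 and was called (adjusted p = 0.0164). A second Psmd7 probe set read lower, at -0.25, 0.26 and 0.25. Psmd14, the deubiquitinase itself, changed by -0.03, 0.42 and 0.34, and 2 further probe sets gave 0.32 and 0.58 at 6 weeks.

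Psmd8, a lid scaffold, was lower at 3 weeks and higher later. It had 3643, 3866 and 3532 at 0h, 3326, 3332 and 3011 at 3 weeks, 5478, 5399 and 5266 at 6 weeks, and 5452, 5142 and 5098 at 9 weeks. The groups at 3 weeks, at 0h and at the later times stood apart in that order, with those at 6 and 9 weeks overlapping. The change was -0.19 ± 0.05 at 3 weeks and 0.55 ± 0.05 at 6 weeks against 0h, and 0.74 ± 0.05 at 6 against 3 weeks (adjusted p = 0.00660, 1.01e-07 and 2.66e-09). The scaffolds Psmd12 and Psmd13 changed by 0.46 and 0.54 at 6 weeks and by 0.49 and 0.56 at 9 weeks, all called, and by -0.02 and 0.06 at 3 weeks, neither called.

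Psmd6, another lid scaffold, had 2914, 2744 and 2823 at 0h, 3144, 3137 and 3396 at 3 weeks, 4402, 3862 and 4434 at 6 weeks, and 4215, 3778 and 3888 at 9 weeks. All CCl4 arrays were above those at 0h. The change was 0.19 ± 0.06, 0.58 ± 0.06 and 0.48 ± 0.06 (adjusted p = 0.0180, 3.48e-07 and 3.00e-06). The one at 3 weeks was not called without array 2 at 0h (0.17, adjusted p = 0.0605), without array 3 at 3 weeks (0.15, adjusted p = 0.0804), or with each array centred on its median (0.09, adjusted p = 0.370).

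By its brightest probe set, Psmd11 was the lid subunit that did not rise above 0h. Its signals were 5359, 4601 and 4521 at 0h, 3712, 2857 and 3562 at 3 weeks, 4107, 4150 and 4330 at 6 weeks, and 4628, 4312 and 4572 at 9 weeks. The 3-week arrays were the lowest of all, and the 9-week arrays overlapped those at 0h. It changed by -0.52 ± 0.08 at 3 weeks (adjusted p = 7.79e-05), -0.20 at 6 weeks (adjusted p = 0.0508) and -0.10 at 9 weeks (adjusted p = 0.339). The value at 6 weeks was called without array 2 at 0h (-0.23, adjusted p = 0.0476) or array 3 at 0h (-0.24, adjusted p = 0.0372), and with centring (-0.22, adjusted p = 0.0347). A second Psmd11 probe set, with a mean signal of 3054 against 4226, did not show the fall. It gave -0.06, 0.15 and 0.25 at 3, 6 and 9 weeks, each ± 0.05. Whether Psmd11 lay above 0h at 6 and 9 weeks thus depends on the probe set.

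**Figure D2:**
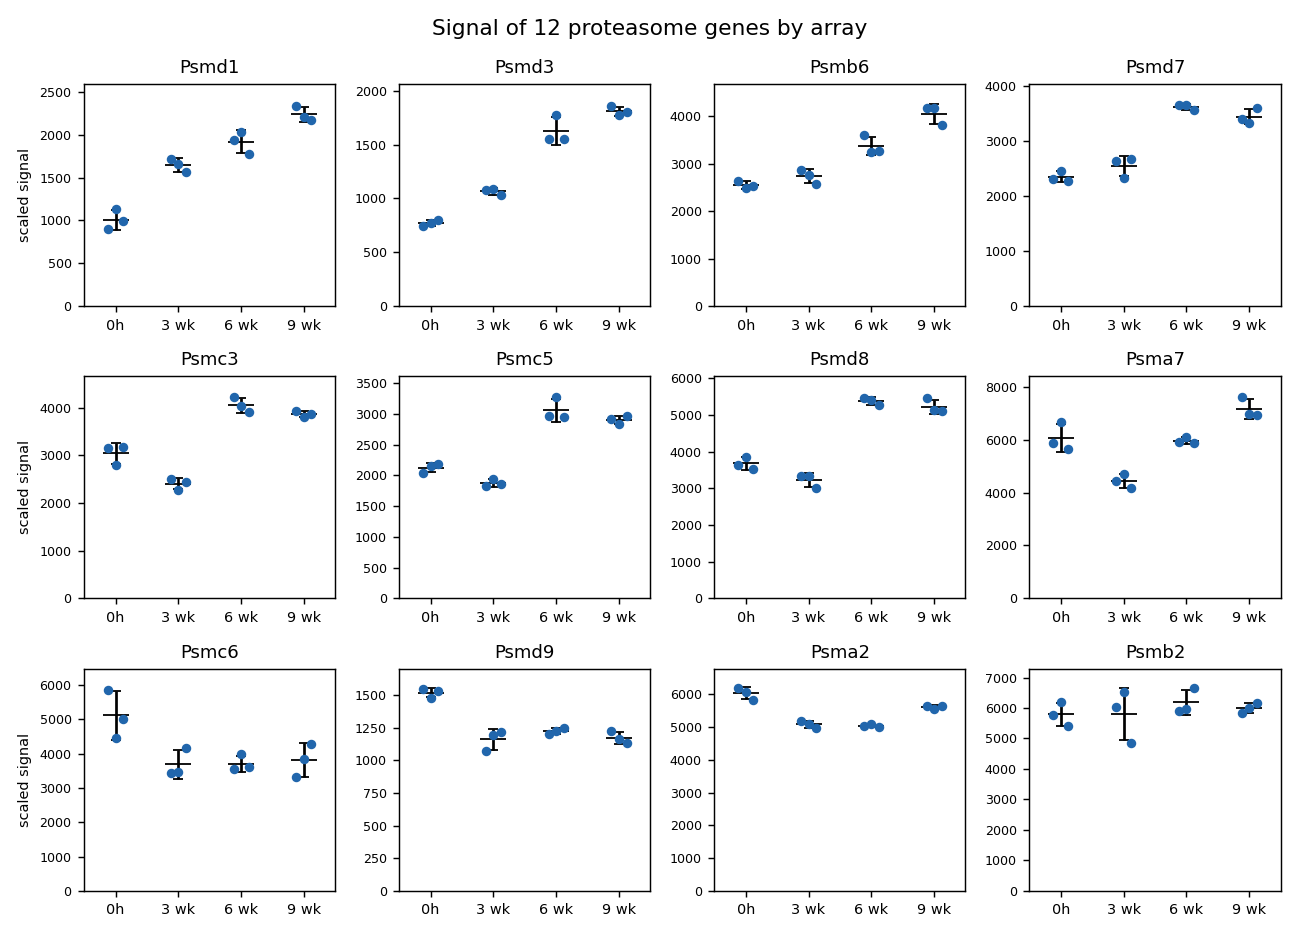
Scaled signal (arbitrary units, linear axis from 0) of 12 proteasome genes at 0h and at 3, 6 and 9 weeks of CCl4; points are arrays, horizontal marks the mean of 3 and bars the SD. Psmd3 climbs to 1857, 1774 and 1800 at 9 weeks, Psmc3, Psmc5, Psmd8 and Psma7 are lowest at 3 weeks, and Psmc6 and Psmd9 stay below their 0h arrays.

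The plot of signal by array puts the genes of the lid and base beside the ones that went the other way; Psmb2 is included as a member with no call.

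The 3 catalytic subunits of the 20S core moved together. None was called at 3 weeks in limma, nor at an unadjusted p under 0.05 (0 higher and 0 lower), and all 3 were higher than at 0h at 6 and 9 weeks. Of all genes, 22.5% were called higher and 19.9% lower at 3 weeks, and 30% and 32.9% higher at 6 and 9 weeks. Psmb6, which carries the caspase-like site, had 2639, 2492 and 2531 at 0h, 2874, 2757 and 2578 at 3 weeks, 3598, 3245 and 3274 at 6 weeks, and 4171, 4170 and 3817 at 9 weeks. The arrays at 6 weeks were above all earlier ones and below all at 9 weeks. Its change was 0.10 ± 0.06, 0.40 ± 0.06 and 0.66 ± 0.06 (adjusted p = 0.185, 1.51e-05 and 3.54e-08), and it rose again by 0.26 ± 0.06 at 9 against 6 weeks (adjusted p = 0.00233).

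Psmb7, the trypsin-like subunit, had 4060, 4193 and 3773 at 0h, 4364, 4101 and 4231 at 3 weeks, 5005, 4966 and 4956 at 6 weeks, and 5208, 5130 and 5235 at 9 weeks. Arrays at 0h and 3 weeks overlapped, and those at 6 weeks lay below all at 9 weeks. The change was 0.08, 0.31 and 0.37, each ± 0.05 (adjusted p = 0.181, 1.85e-05 and 2.52e-06). Psmb5, the chymotrypsin-like subunit that proteasome inhibitor drugs bind, had 5560, 5014 and 5508 at 0h, 4988, 5400 and 5370 at 3 weeks, 6237, 6331 and 6331 at 6 weeks, and 6694, 6573 and 6984 at 9 weeks. The arrays at 0h and 3 weeks were mixed and all later ones were higher. The change was -0.03, 0.23 and 0.33, each ± 0.05 (adjusted p = 0.672, 0.000624 and 1.90e-05). At 9 against 6 weeks neither passed the test (0.06 for Psmb7, adjusted p = 0.370, and 0.10 for Psmb5, adjusted p = 0.155).

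Of the 4 beta subunits without a proteolytic site, Psmb3 rose most, by 0.24 at 6 weeks and 0.35 at 9 weeks (adjusted p = 0.000858 and 2.76e-05). Psmb4 was lower at 3 weeks (-0.19, adjusted p = 0.00122) and higher at 6 weeks (0.12, adjusted p = 0.0183) and 9 weeks (0.18, adjusted p = 0.00137). Its call at 6 weeks was lost without array 1 at 0h (0.11, adjusted p = 0.0542) or array 1 at 6 weeks (0.11, adjusted p = 0.0582), and with centring those at 6 and 9 weeks both were (0.09 and 0.15, adjusted p = 0.289 and 0.0860). Psmb1 was called at 6 weeks (0.11, adjusted p = 0.0427), but not without array 2 or 3 at 0h or any one array at 6 weeks (0.07 to 0.12, adjusted p 0.0709 to 0.195) or with centring (0.09, adjusted p = 0.329). At 9 weeks it changed by 0.08 (adjusted p = 0.159), and by 0.30 with quantile normalization, where it was called (adjusted p = 5.62e-06). Psmb2 differed in no comparison, with changes of -0.01, 0.09 and 0.05 at 3, 6 and 9 weeks; its arrays at 3 weeks spread from 4858 to 6531.

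The alpha ring, which forms the gate of the core, went both ways. Of 6 alpha genes, 1 was higher and 3 lower than at 0h at 3 weeks, beside 22.5% and 19.9% of all genes. At 6 weeks 3 were higher and 2 lower, beside 30% and 24.4%, and at 9 weeks 4 and 1, beside 32.9% and 22.8%. Calls both ways were thus no trait of the alpha ring alone. Psma7 had 5875, 6668 and 5659 at 0h, 4445, 4692 and 4165 at 3 weeks, 5898, 6102 and 5873 at 6 weeks, and 7605, 6955 and 6918 at 9 weeks. The 3-week arrays were the lowest and the 9-week arrays the highest of all. The change against 0h was -0.45 ± 0.06, -0.02 and 0.24 ± 0.06 (adjusted p = 1.70e-05, 0.778 and 0.00305), and it was 0.43 ± 0.06 at 6 against 3 weeks and 0.26 ± 0.06 at 9 against 6 weeks (adjusted p = 1.74e-05 and 0.00403). A much dimmer Psma7 probe set gave 0.08, -0.17 and 0.28 against 0h, and the mean of both was not called at 6 against 3 weeks (0.09, adjusted p = 0.308). With centring the change at 9 weeks was 0.21 and missed the threshold (adjusted p = 0.0533).

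Psma2 was below normal liver throughout, with 6194, 6076 and 5831 at 0h, 5187, 5105 and 4961 at 3 weeks, 5039, 5079 and 4997 at 6 weeks, and 5631, 5545 and 5645 at 9 weeks. The arrays at 9 weeks lay between those at 0h and the earlier CCl4 arrays. Its change was -0.25 ± 0.04, -0.26 ± 0.04 and -0.11 ± 0.04 (adjusted p = 0.000107, 3.40e-05 and 0.0347). The last was not called without array 1 or 2 at 0h or any one array at 9 weeks (-0.11 to -0.09, adjusted p 0.0621 to 0.127), with centring it was -0.13 (adjusted p = 0.129), and with quantile normalization it was 0.0010 (adjusted p = 0.984). Psma5 had 6078, 5798 and 5999 at 0h, 5526, 5221 and 5330 at 3 weeks, 5430, 5214 and 5478 at 6 weeks, and 6426, 6285 and 6160 at 9 weeks. Its arrays at 3 and 6 weeks lay below those at 0h, and its arrays at 9 weeks above them. The change was -0.15, -0.15 and 0.08, each ± 0.04 (adjusted p = 0.00750, 0.00638 and 0.125), and 0.23 ± 0.04 at 9 against 6 weeks (adjusted p = 0.000651). With quantile normalization the changes of Psma5 against 0h were -0.097, -0.066 and 0.19 (adjusted p = 0.0564, 0.169 and 0.000517), so that the calls at 3 and 6 weeks were lost and one at 9 weeks was gained.

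The other alpha genes were mostly higher late. Psma4 changed by 0.14, 0.25 and 0.36, all called, but at 3 weeks not without array 3 at 0h (0.12, adjusted p = 0.0595), without array 2 at 3 weeks (0.12, adjusted p = 0.0549), or with each array centred on its median (0.04, adjusted p = 0.690). Psma6 changed by 0.03, 0.21 and 0.32, of which the later pair was called; with quantile normalization the first was 0.10 and was called (adjusted p = 0.0321). Psma1 changed by -0.04, 0.12 and 0.23. Its value at 6 weeks (adjusted p = 0.0473) was not called without array 2 or 3 at 0h or array 1 or 3 at 6 weeks (0.09 to 0.14, adjusted p 0.0548 to 0.190), nor with centring (0.10, adjusted p = 0.274). Psma3 is not among the members, since both of its probe sets also carry the symbol of a copy, Psma3l, and the signal of the pair cannot be told apart. Their changes were 0.36, 0.31 and 0.27 for the brighter one and -0.04, 0.23 and 0.12 for the other.

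None of the 3 chaperones of base assembly was called higher than at 0h at any time, and Psmd5 and Psmd9 were called lower. Of all genes, 22.5%, 30% and 32.9% were called higher at 3, 6 and 9 weeks, and 19.9%, 24.4% and 22.8% lower. Psmd9 had 1545, 1478 and 1526 at 0h, 1068, 1192 and 1220 at 3 weeks, 1197, 1226 and 1245 at 6 weeks, and 1223, 1160 and 1135 at 9 weeks. All CCl4 arrays were below those at 0h, and the CCl4 groups overlapped. The change was -0.38, -0.31 and -0.37, each ± 0.06 (adjusted p = 0.000103, 0.000488 and 8.94e-05), and a dimmer probe set gave -0.24, -0.53 and -0.42. Psmd5 changed by -0.35, -0.22 and -0.12, of which the first pair was called; the value at 9 weeks (adjusted p = 0.0753) was called without array 2 at 0h (-0.16, adjusted p = 0.0258) and with quantile normalization (-0.15, adjusted p = 0.0291). At 6 against 3 weeks Psmd5 was higher by 0.14 (adjusted p = 0.0460), a call lost with quantile normalization (0.11, adjusted p = 0.0948), with a replicate block (adjusted p = 0.0528), with no intensity trend (adjusted p = 0.0647), in a fit of those groups alone (adjusted p = 0.0744), and without array 2 or 3 at 3 weeks or any one array at 6 weeks (0.11 to 0.15, adjusted p 0.0511 to 0.141). Psmd9 and Psmd10 changed by 0.08 and 0.09 in that step, neither called. Psmd10, known as the oncoprotein gankyrin, changed by -0.17, -0.08 and 0.05, none called, although without array 1 at 3 weeks the first was -0.27 (adjusted p = 0.0240). Psmc3ip, no subunit, was dim, at 148 to 250 at 0h, and changed by 0.09, -0.31 and -0.39; without array 1 at 0h the later pair were -0.53 and -0.61 and were called (adjusted p = 0.0253 and 0.0114).

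**Figure D3:**
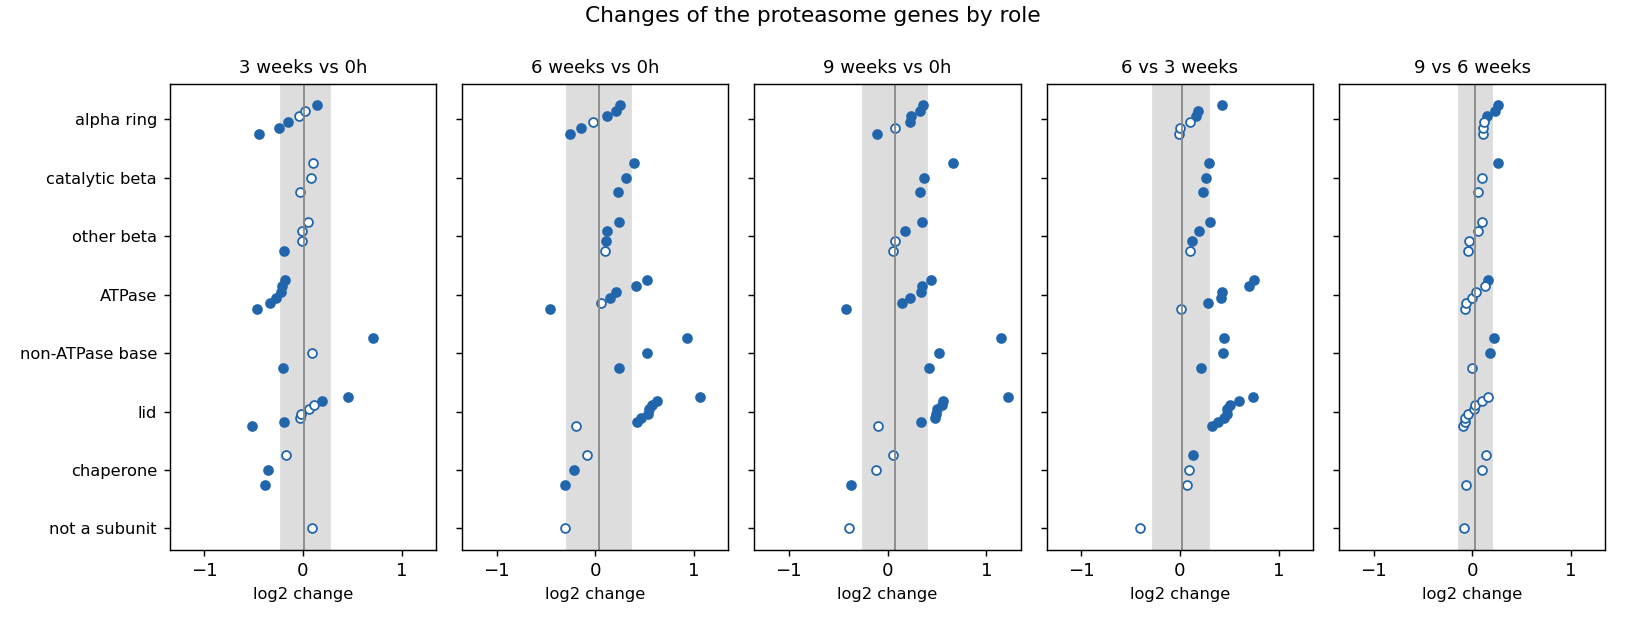
Each point is the log2 change of 1 gene in 1 of 5 comparisons (columns), by role (rows); filled points were called at an adjusted p under 0.05 in limma, the grey line is the median and the grey band the middle 50% of all 10322 genes tested. At 6 against 3 weeks all 8 lid genes and 5 of 6 ATPases are filled, and at 9 against 6 weeks none of the lid genes is. Of all genes, 26.3% were called higher at 6 against 3 weeks, and 14.9% higher and 11.1% lower at 9 against 6 weeks.

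The plot of changes by role sets the 19S particle beside the 20S core. Over 17 genes of the 19S particle the median change was -0.18, 0.46 and 0.44 at 3, 6 and 9 weeks, against -0.01, 0.12 and 0.24 over 13 genes of the core. At 9 against 6 weeks the order was the other way, with a median of 0.02 for the 19S genes and 0.11 for the core. No test was made of this difference between gene groups.

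The immunoproteasome genes had another time course. Psmb9, which replaces Psmb6, changed by 0.79, -1.22 and 1.13 at 3, 6 and 9 weeks; Psmb8, which replaces Psmb5, by 0.20, -1.43 and 0.29, all 6 called, and Psmb10, which replaces Psmb7, by -0.25, -1.33 and -0.07, the last not called (adjusted p = 0.367). At 6 weeks each was more than 2-fold below 0h while its constitutive counterpart was above it. The subunits of the interferon-induced activator PA28 fell at 6 weeks likewise, Psme1 by 0.58 and Psme2 by 0.74 on the log2 scale (adjusted p = 7.26e-09 and 1.11e-09).

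**Figure D4:**
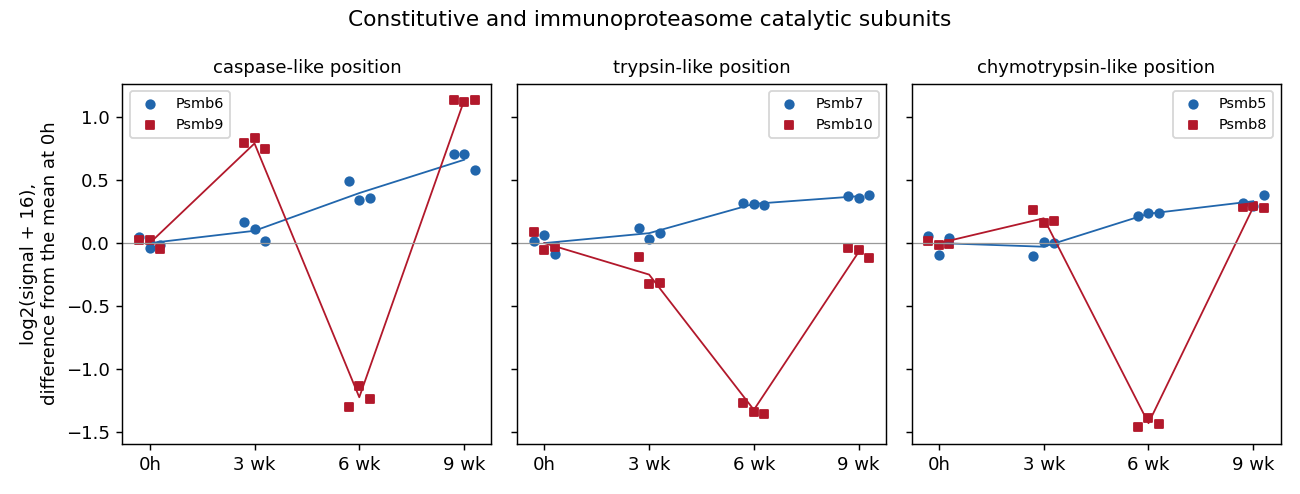
Each panel sets a constitutive catalytic subunit (blue circles) beside the immunoproteasome subunit that takes its position (red squares), as log2(signal + 16) minus the gene's mean over the 3 arrays at 0h; points are arrays and lines join group means. At 6 weeks Psmb6, Psmb7 and Psmb5 were at 0.40, 0.31 and 0.23, and Psmb9, Psmb10 and Psmb8 at -1.22, -1.33 and -1.43.

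The plot of catalytic pairs shows the immunoproteasome genes far below 0h at 6 weeks, and markers of immune cells were lower then too. The summed signal of 7 of 8 macrophage markers was 8808 to 9061 at 6 weeks and 15073 to 15298 at 0h, and that of 8 of 9 lymphocyte markers 1488 to 1571 at 6 weeks and 2885 to 2910 at 0h; 6 of the 7 and 5 of the 8 were called lower. Of other cells, 5 of 6 endothelial markers summed to 4335 to 4555 at 6 weeks and 7537 to 8331 at 0h, and all 8 hepatocyte markers to 205468 to 234233 at 6 weeks and 251530 to 290400 at 0h, with 6 of the 8 lower and 2 higher. The 7 stellate and myofibroblast markers summed to 4835 to 4858 at 0h, 12575 to 13624 at 3 weeks and 6864 to 7166 at 6 weeks. The brightest gene led this sum, and at 6 weeks 3 of the 7 were called higher and 1 lower. The sum of 3 of 5 bile duct markers was 2432 to 2893 at 6 weeks and 1365 to 1452 at 0h. It rose through Spp1 (218, 254 and 154 at 0h, 1611, 1876 and 1826 at 6 weeks). Of these 3 markers, 1 was called higher and 2 lower at 6 weeks. Over all genes tested 30% were called higher and 24.4% lower then. Their part in the changes of the proteasome genes was not tested.

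Genes that work with the proteasome were counted from lists written with earlier results of these data known. Over all genes tested, 22.5% were called higher and 19.9% lower at 3 weeks, 30% and 24.4% at 6 weeks, and 32.9% and 22.8% at 9 weeks. These shares are the background for each list below. Of 12 assembly factors and minor 19S subunits, 9 were measured; 3 were higher and 3 lower than at 0h at 3 weeks, 5 and 2 at 6 weeks, and 4 and 1 at 9 weeks. Most changed in each comparison with 0h was Adrm1, the ubiquitin receptor RPN13, which docks on Psmd1. It had 358, 381 and 315 at 0h, 829, 804 and 798 at 3 weeks, 1332, 1434 and 1347 at 6 weeks, and 1818, 1930 and 1905 at 9 weeks, and the 4 groups did not overlap. Its change was 1.17 ± 0.07, 1.92 ± 0.07 and 2.38 ± 0.07 (adjusted p = 2.06e-09, 8.13e-13 and 6.41e-14), larger than that of any of the 34 members at each time.

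Among 14 of 15 measured genes of the ubiquitin shuttles and the p97 complex, which bring substrates to the proteasome, 7 were higher and 3 lower at 3 weeks, 11 and 1 at 6 weeks, and 8 and 2 at 9 weeks. The most changed was Syvn1, a ubiquitin ligase of the endoplasmic reticulum, with 0.91, 1.63 and 1.55. Of the 6 genes of ubiquitin and its activating enzymes, 0 were higher and 2 lower at 3 weeks. There were 2 and 2 at 6 weeks (33.3% each), and 3 and 3 at 9 weeks. In autophagy, the other route of protein breakdown, 12 of 13 genes were measured. At 3 weeks, and again at 9 weeks, 4 of them were higher and 4 lower. At 6 weeks 5 of them were higher and 4 lower (41.7% and 33.3%), beside 30% and 24.4% of all genes. Map1lc3a had the largest change at 1.62.

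The lid has relatives: the COP9 signalosome and the translation factor eIF3 are built from subunits of the same folds. Of 12 measured eIF3 genes of 13, 2 were higher and 6 lower than at 0h at 3 weeks, 9 were higher at 6 weeks and 8 at 9 weeks, with medians of -0.14, 0.31 and 0.27. Of the 9 COP9 genes, 2 were lower at 3 weeks, 2 were higher and 3 lower at 6 weeks, and 3 and 3 at 9 weeks, with medians of -0.11, 0.07 and 0.09. Of all genes, 22.5%, 30% and 32.9% were higher and 19.9%, 24.4% and 22.8% lower at these times.

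Of the known regulators of proteasome genes, 11 of 12 were measured. At 3 weeks 0 were higher and 2 lower, beside 22.5% and 19.9% of all genes. At 6 weeks 5 were higher and 3 lower, beside 30% and 24.4% of all genes. At 9 weeks 4 were higher and 2 lower, beside 32.9% and 22.8%. Nfe2l1 had 436, 412 and 388 at 0h, 507, 479 and 468 at 3 weeks, 475, 575 and 503 at 6 weeks, and 327, 409 and 400 at 9 weeks. Arrays at 3 and 6 weeks lay above those at 0h and at 9 weeks. Its change was 0.23 ± 0.11, 0.32 ± 0.11 and -0.12 ± 0.11 (adjusted p = 0.104, 0.0206 and 0.361). Nfe2l2 (NRF2), the related factor of the oxidative stress response, had 4759, 5448 and 4943 at 0h, 3837, 3818 and 3681 at 3 weeks, 3048, 2949 and 3250 at 6 weeks, and 3626, 3742 and 3573 at 9 weeks, all CCl4 arrays below those at 0h. It was lower by -0.41, -0.71 and -0.47 (adjusted p = 1.03e-05, 6.66e-09 and 1.31e-06). Mafk, a small partner of both factors, was higher at 6 weeks (1.11, adjusted p = 1.77e-06) and 9 weeks (1.05, adjusted p = 3.39e-06). These are transcript levels; Nfe2l1 and Nfe2l2 are known to be controlled mainly as proteins, which were not measured here.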

How the data were processed

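Liver RNA was measured on 12 arrays in 4 groups of 3, taken from the labels. The values are intensity, deposited as 1 linear signal per probe set and array and scaled by the authors, per the file headers, with GCOS 2.0 as the program per the submitters' processing notes. The mean of each array after trimming 2% from each end was 500.2. A second deposited table of intensity differs from it by at most 0.1. The authors also deposited log2 ratios against 0h, by a method not given in the sources used here, which serve only as a comparison. They also deposited the same ratios on a linear scale, which were not used. Every per-sample column was matched to a label (0 unmatched).

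Signals were used as log2(signal + 16). Probe sets above the 40th percentile of the mean over all arrays, a signal of 75.3, were kept (18625 of 31099), controls (57) were left out, and the brightest probe set with a single symbol stood for a gene, with symbols brought up to date with a RefSeq table. One model over the 12 arrays, with a mean per group and 8 residual degrees of freedom, was fitted in limma 3.58.1 under R 4.3.3 (lmFit, eBayes with an intensity trend) for 5 comparisons; p-values were adjusted after Benjamini and Hochberg over 10322 genes. The fit was tested on simulated data. Arrays give no counts, so their number limits the precision. Array medians were 7.09 to 7.31 on the log2 scale, and arrays correlated at r = 0.967 to 0.978 within groups and 0.938 to 0.969 between groups across probe sets.

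The members and all lists and motifs were chosen with earlier results of these data known. By rule, values in every array are given for the 3 catalytic subunits and, per comparison, for the 3 largest rises and falls among called members, and of each other list the called gene with the largest change may be named. Across groups, deviations from the group mean correlated at -0.04 to 0.12 for arrays with the same replicate number. For arrays with different numbers the range was -0.16 to 0.13. The ranges overlap, and the main fit has no block. Calls with a block are given below. Alternatives changed the pseudocount, scaling, filter, trend, probe set rule, arrays fitted and block. Promoters came from a RefSeq table of GRCr8. Tables and figures were made with matplotlib 3.10.9, numpy 2.4.6 and pandas 2.3.3 in Python 3.11.15.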

Additional observations from a re-analysis of the deposited data

Results flagged for a closer look

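A group of 7 proteasome genes were called lower than at 0h at 3 weeks and higher than at 0h at 6 weeks, so that their changes against the same normal livers went opposite ways. The genes were picked by these calls, which all but fixes the sign of the difference between the times, so the values are a description. The share of all genes with both calls was not counted, so whether 7 of 34 stands out is not known. Taken singly, 19.9% of all genes were lower at 3 weeks and 30% higher at 6 weeks. Among the ATPases the change at 6 against 3 weeks was 0.75 ± 0.06 log2 units (SE) for Psmc3, 0.70 ± 0.05 for Psmc5, 0.42 ± 0.05 for Psmc4 and 0.42 ± 0.05 for Psmc1. The others were the lid scaffold Psmd8 (0.74 ± 0.05), the ubiquitin receptor Psmd4 (0.44 ± 0.05) and the beta subunit Psmb4 (0.31 ± 0.04). With each array centred on its median, 3 of the 7 lost the call at 6 weeks against 0h: Psmb4 (adjusted p = 0.289), Psmc1 (adjusted p = 0.207) and Psmc4 (adjusted p = 0.0645). Psmb4 also lost it with no intensity trend (adjusted p = 0.0592) and without array 1 at 0h (adjusted p = 0.0542) or array 1 at 6 weeks (adjusted p = 0.0582). Psmc1 also lost it without array 2 at 6 weeks (adjusted p = 0.0603), and quantile normalization ended its call too (adjusted p = 0.0538).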

How the results depend on the processing

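Counts of called members kept within 1.5 times under most settings. The exceptions were the number higher at 3 weeks, which was 2 when array medians were set equal (centring), and the number higher at 9 against 6 weeks, which was 11 with quantile normalization and 3 with centring. The members' median change moved most with scaling. With quantile normalization it was -0.015, 0.30 and 0.38 at 3, 6 and 9 weeks against 0h and 0.32 at 6 against 3 weeks. With centring it was -0.13, 0.19, 0.31 and 0.37. Centring moves every probe set of an array by the same amount, and the median over all genes at 3 weeks moved too, to -0.09. With the mean of all probe sets of a gene the members' median was -0.053 at 3 weeks and 0.26 at 6 against 3 weeks. With the filter at the 60th percentile, which left 1 member out, it was 0.10 at 9 against 6 weeks. In the main fit the median of the members without Psmc3ip was also 0.10 in that step. Leaving out 1 array at a time gave member medians of -0.079 to -0.030, 0.19 to 0.24 and 0.30 to 0.36 at 3, 6 and 9 weeks, and 0.27 to 0.31 at 6 against 3 weeks. The change of Psma2 at 9 weeks turned from negative to 0.0010 with quantile normalization (adjusted p = 0.984). The cause of the other differences was not tested.

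With the replicate number as a block, members called higher and lower were 4 and 15 at 3 weeks, 23 and 6 at 6 weeks, 24 and 3 at 9 weeks, 25 and 0 at 6 against 3 weeks, and 7 and 0 at 9 against 6 weeks; Psmd11 at 6 weeks was gained and Psmd5 at 6 against 3 weeks lost.

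The arrays carry no measure of differences between animals, and time, CCl4 and age cannot be told apart, since 0h is the only control. Dim second probe sets near the filter have little signal over background.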
